A study of Homo sapiens with 2 samples.

Results

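The intergenic peaks within 100 kb of a transcription start site (TSS) are described here, from PAX-8 ChIP-Seq in foam cells that had received C18-3OH. Their centres lie outside listed transcripts and outside the promoter and upstream windows, although the edges of 66 overlap a listed transcript, and they are within reach of at least 1 annotated TSS. A peak was a member when its listed class was intergenic and its smallest listed distance to a TSS was at most 100000 bp. This held for 10556 of 45360 peaks, 23.3% (Wilson 95% interval 22.9 to 23.7), and for 60.1% of the 17568 intergenic peaks. Class and distance were used by the rule and are no finding, and neither is the membership of ABCA1.

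The study looked for PAX-8 targets in THP-1 macrophage-derived foam cells, and 1 PAX-8 ChIP library and 1 library of Input, the chromatin before precipitation, were analysed here. THP-1 is an established human monocytic leukemia line. Both libraries came from cells given 160 nmol/L PMA for 24 h, rested for 6 to 12 h, loaded with ox-LDL for 48 h and treated with 100 µM C18-3OH, the agent under study, for 24 h. The ox-LDL dose is 50 mg/mL in the labels and 50 μg/mL in the methods. An independent repeat of the ChIP-Seq is mentioned in the methods and was not analysed here. With no library from untreated cells and no replicate at hand, no value below is a response to C18-3OH and conditions could not be tested against each other. Tags are listed per peak for the ChIP and not for the Input. Reads per library were not at hand, so the depth is unknown.

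PAX-8 is a paired-box transcription factor known for its part in the thyroid, the kidney and the reproductive tract, where it drives genes of thyroid hormone synthesis. Transcription factors bind both at promoters and at distal elements such as enhancers, which can lie in the DNA between genes. An enhancer may act on a gene other than the nearest, so the gene assigned to an intergenic peak is its nearest by annotation. The assignment alone does not show a target. ABCA1, the transporter that moves cholesterol and phospholipid out of macrophages onto apolipoprotein A-I, has its single listed peak among these members.

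The ABCA1 peak lies at chr9:107755317-107755882 of hg19, 65163 bp upstream of the TSS, and is 566 bp long. Its 12 tags carry an exact Poisson 95% interval of 6.20 to 21.0, which covers counting error alone, with a listed fold enrichment of 6.54, a p-value score of 42.9 and a false discovery rate (FDR) of 0.14%. The score is 10 times the negative logarithm of the listed p-value, and the background that this p-value implies was 3.36 tags. The next peak of any class was 138 kb away. Of the 10556 members, 6619 had a higher fold enrichment, 1183 had the same value with ABCA1 counted among them, and 2754 had a lower one. This placed the ABCA1 peak at percentile 31.7 by fold enrichment, 22.8 by tags and 21.7 by score. By distance to the TSS it stood at percentile 76.6, so it was farther out than most members and lower than most in signal.

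Its values were shared by many other members. The same 12 tags and the same fold enrichment of 6.54 were listed for 421 members, and 219 of these were also within 25 bp of its length. In 11 members, ABCA1 included, length, tags, score and fold enrichment were all identical. Among the other 10, chosen for naming after their values were seen, were peaks assigned to PAX6 (a paired-box factor of eye and brain development), PGR (the progesterone receptor), NRG3 (a neuregulin), CAPN6, DCLK3, G2E3, PKDCC, MPHOSPH10 and LINC00207. The other 10 lay on 8 chromosomes, and the one at DCLK3 was 99.6 kb downstream of its TSS. At a shared background, length and tags fix the score, so these identities are not 3 separate agreements.

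The 10 upstream members nearest to ABCA1 in distance, 65.1 to 65.2 kb from their TSS, gave a range of fold enrichment from 4.90 to 11.4 with a median of 7.64. Of these, 6 were above ABCA1, 3 were below, and 1, at BDNF, a neurotrophin, was equal. The highest was at PHF21B with 17 tags and a fold enrichment of 11.44, followed by CASC18 with 12 tags and 9.80. TSPAN18, a tetraspanin, had 12 tags and 8.99, and C14orf180 had 11 tags and 8.99. LINC00430 had 13 tags and 7.93, and YPEL5 had 12 tags and 7.35. The 3 below were LOC101927829 with 5.72, SLIT3, a secreted guidance ligand, with 5.44, and MED4, a subunit of the Mediator complex, with 4.90. The ABCA1 value therefore lay inside the range of members at its distance. In all, 514 upstream members lay 60 to 70 kb from their TSS.

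**Figure D1:**
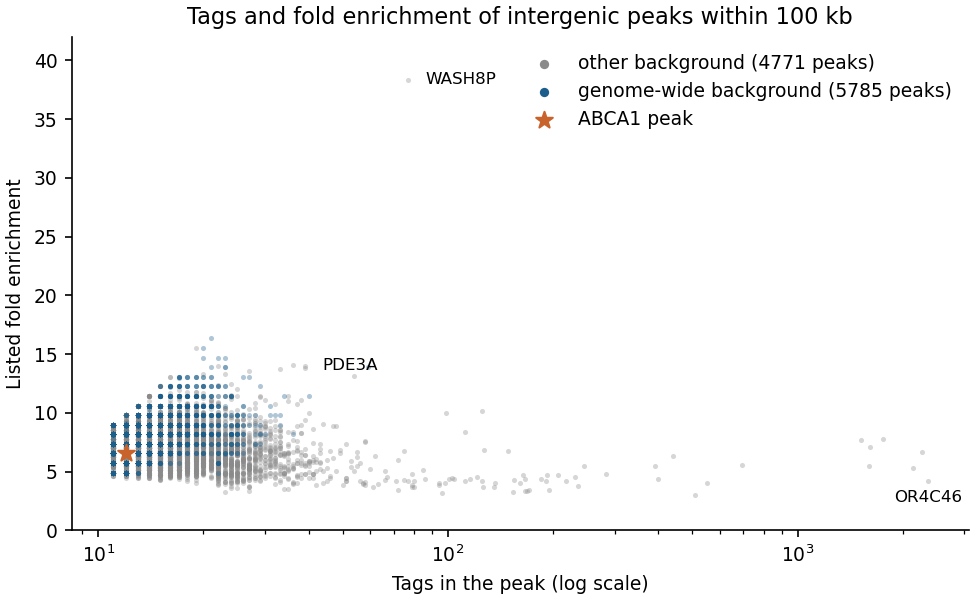
Listed fold enrichment (vertical axis) against tags in the peak (horizontal axis, log scale) for the 10556 members, with members at the genome-wide background in blue, other members in grey and the ABCA1 peak as a star. The blue points stand in horizontal rows, the ABCA1 peak sits at 12 tags and 6.54, WASH8P stands alone at 38.33, and the OR4C46 peaks reach 2359 tags at low fold enrichment.

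Most members were short peaks of few tags. Their median was 14 tags (quartiles 12 and 17, range 11 to 2359), and 9234 of them, 87.5%, held 11 to 20 tags. The median fold enrichment was 7.35 (quartiles 6.44 and 8.17, range 2.97 to 38.3), the median length 593 bp (511 to 697), the median score 48.2 (43.5 to 56.5) and the median FDR 0.160% (0.140 to 0.180). The medians of 14 tags and 7.35 were also those of the far intergenic, upstream, promoter and intron peaks.

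The strongest members were few and as common as in the whole list. A fold enrichment of at least 10 was listed for 477 members, 4.52% (4.14 to 4.93), beside 4.63% of all peaks. It was listed for 4.19% of intergenic peaks beyond 100 kb, 4.84% of upstream, 5.04% of promoter and 4.69% of intron peaks. The difference to promoter peaks was -0.521 percentage points (Newcombe 95% interval -1.40 to 0.280), and the intervals against the other classes, exons included, held 0 as well. A score of at least 80 was listed for 460 members, 4.36% (3.98 to 4.76), beside 4.30% of all peaks. Promoter peaks reached this score in 6.19%, so members were 1.83 points lower, a difference of -1.83 (-2.77 to -0.968). Intron peaks reached it in 3.86%, and the interval of the difference was 0.0137 to 0.998 points in favour of members. At least 30 tags were held by 335 members, 3.17%, beside 2.87% of all peaks. The share was 4.27% in promoter peaks, a difference of -1.10 points (-1.90 to -0.378), and 2.22% in intron peaks, a difference of 0.957 points (0.558 to 1.37). Members thus held fewer peaks of high score and high tag number than promoters and more peaks of high tag number than introns, while the share at high fold enrichment did not differ beyond counting error. These intervals treat peaks as independent and cover counting error in 1 library only.

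**Figure D2:**
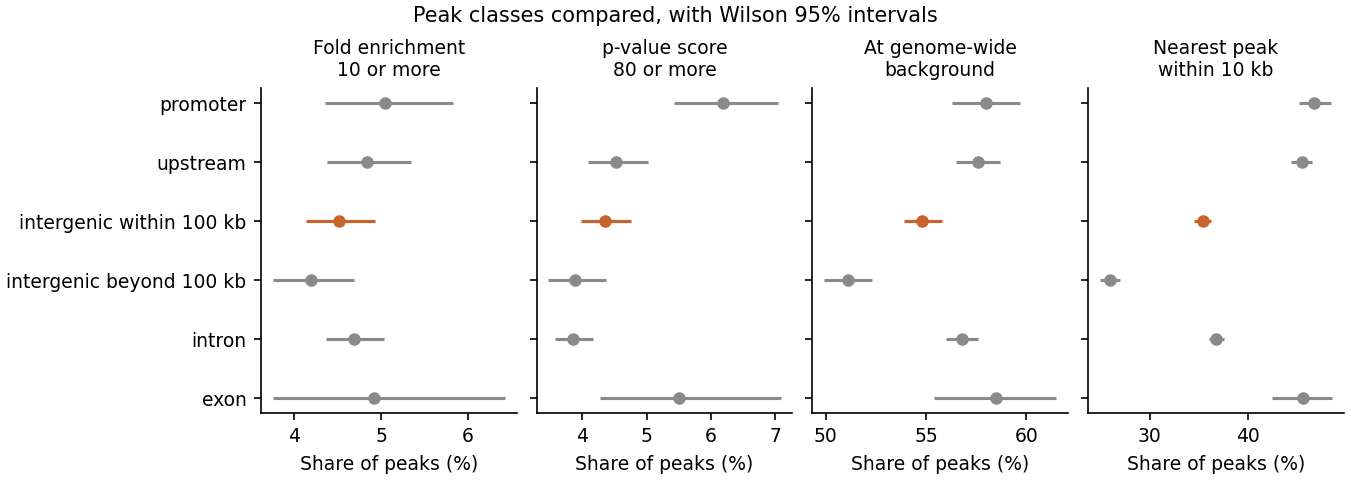
Share of peaks in percent with a fold enrichment of at least 10, with a score of at least 80, at the genome-wide background and with a neighbour within 10 kb, for the members and the other peak classes, with Wilson 95% intervals as bars. The axes do not start at 0. The members (orange) stand at 4.52%, 4.36%, 54.8% and 35.4%, and the far intergenic peaks stand lowest in the last 2 panels at 51.1% and 26.0%.

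Of the 10 members with the highest fold enrichment, 7 were at protein-coding genes, beside 57.6% of all members, and 5 lay upstream, beside 51.9%. WASH8P, a transcribed pseudogene of the WASH family of actin regulators, had 77 tags (60.8 to 96.2) and a fold enrichment of 38.33, the highest of the downstream members and of all members. It lies 21.7 kb downstream of its TSS near the start of chromosome 12. SPPL2A, an intramembrane protease of late endosomes and lysosomes, had the highest upstream member at chr15:51081986-51082433, 24.3 kb from the TSS, with 21 tags (13.0 to 32.1) and 16.34. PPP1R21, an endosomal protein, had 19 tags and 15.52 at 20.3 kb upstream, and NHLRC2 had 20 tags and 15.52 at 81.7 kb downstream. TRARG1, a regulator of glucose transporter trafficking, had 23 tags and 14.70 at 33.4 kb downstream. The same 14.70 was listed for the long non-coding RNAs IQCH-AS1, with 22 tags, and LINC02681, with 20 tags. GCNT1, which builds branched O-glycans, had 36 tags and 14.11, and SIAH2, a ubiquitin ligase of the hypoxia response, had 22 tags and 14.02. PDE3A, a cyclic nucleotide phosphodiesterase, had 39 tags and 13.99 at 20.5 kb upstream, with no other peak within 580 kb. Its listed FDR was 2.86%, beside a median of 0.160% in members. The background implied by the p-value was 2.22 times the genome-wide one for PDE3A and 1.74 times for GCNT1. Below WASH8P the members named here differed little in fold enrichment, from 13.99 to 16.34, and their Poisson intervals on tags overlapped.

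Ranking by score gave other members, with only WASH8P in both sets of 10. The background implied by the p-value was over 3 times the genome-wide one in 7 of these 10 and could not be solved for 1, PLEKHG4B, which sits at the largest score in the list. PLEKHG4B, a guanine nucleotide exchange factor, had 1612 tags and a score of 3100, with a fold enrichment of 7.10, at chr5:9931-12061, near the start of chromosome 5. OR4C46, an olfactory receptor gene on chromosome 11, had 8 listed peaks, all of them members, with 14 to 2359 tags and a background up to 140 times the genome-wide one. Its fold enrichment was 4.02 to 8.98. LOC101928381 on chromosome 9 reached 2274 tags at 149 times background, with a fold enrichment of 6.66 there. DBET, a non-coding RNA of the D4Z4 repeat region on chromosome 4, had 7 members of 27 to 441 tags at 2.83 to 5.05 times background. LINC02414 reached 127 tags at 7.81 times, and CHEK2P2, a pseudogene of the checkpoint kinase gene CHEK2, reached 191 tags at 5.87 times. The exceptions were WASH8P, at a background ratio of 1.13, and DBNDD1, with 59 tags (44.9 to 76.1), a score of 232.3 and a fold enrichment of 13.89 at a ratio of 1.00. A background over 3 times the genome-wide one was found in 76 members, 0.720%, with a median of 118 tags and a median fold enrichment of 4.38, and 2 of them reached a fold enrichment of 10. Among all peaks the share was 0.635%.

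The fold enrichment took few values. The p-values implied a background within 1% of 5.94 tags per kb, the most frequent one in the list, for 5785 members, 54.8% (53.9 to 55.8). Of these, 99.2% had a fold enrichment within 0.015 of a whole multiple of 0.816, against 10.7% of the other 4771 members. The commonest values were 7.35 in 1361 members, 6.54 in 1183, 8.17 in 1167, 8.99 in 875, 5.72 in 636 and 9.80 in 411. One step of 0.816 is thus the smallest difference between members at this background, up to rounding, and the ABCA1 peak lies 1 step below their median. Members at the genome-wide background had a median of 13 tags and a fold enrichment of 7.35, with 305 of them, 5.27%, at 10 or more. The 2745 members, 26.0%, with a background over 1.2 times as high had a median of 18 tags and 6.40, with 39, 1.42%, at 10 or more. The difference was 3.85 points (3.10 to 4.57). The background was solved from the tags and score of the same peak, and every member had a score of at least 40. A peak over a higher background needs more tags to reach that score. This contrast is therefore partly fixed in advance and is given as a description.

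The background differed by chromosome. At the genome-wide background were 24.4% of members on chromosome 1, 41.9% on chromosome 5, 4.18% on chromosome 6, 1.47% on chromosome 8 and 46.1% on chromosome 9, against 58.6% to 76.7% on the other 17 autosomes. The median fold enrichment was 6.66 on chromosome 1, 6.59 on chromosome 6 and 6.74 on chromosome 8. Chromosomes 6 and 8 held 1321 members, 12.5%. Members made up 15.2% of the peaks on chromosome 19 and 29.2% on chromosome 21, the ends of the range over the autosomes.

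**Figure D3:**
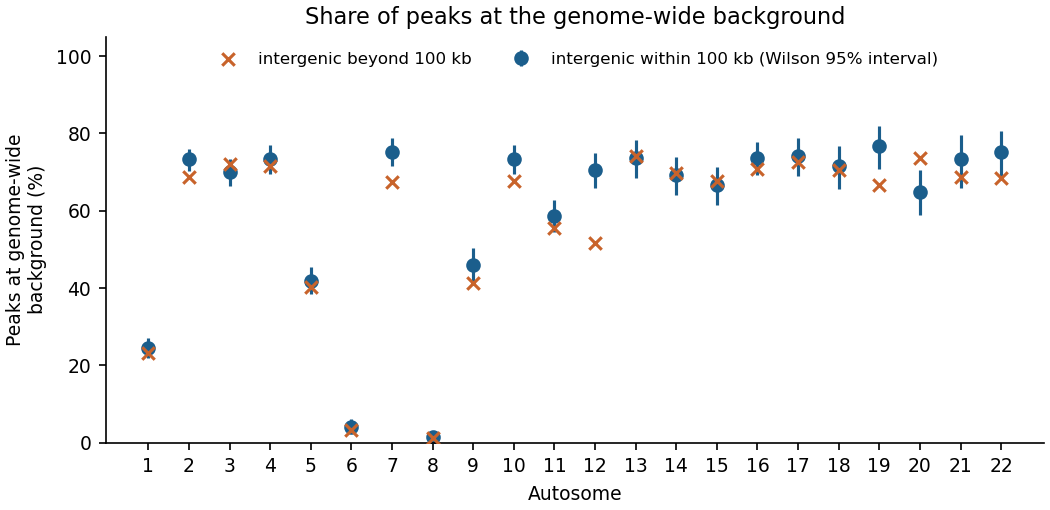
Share of peaks at the genome-wide background in percent (vertical axis) on each autosome (horizontal axis), for members as blue points with Wilson 95% intervals and for intergenic peaks beyond 100 kb as orange crosses. Members on chromosomes 6 and 8 stand lowest at 4.18% and 1.47%, and chromosomes 1, 5 and 9 lie between them and the other autosomes.

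Over all chromosomes, members were at the genome-wide background more often than intergenic peaks beyond 100 kb, 54.8% against 51.1%, a difference of 3.70 points (2.20 to 5.21). They were there less often than upstream peaks at 57.6% (-2.78, -4.24 to -1.31) and intron peaks at 56.8% (-2.01, -3.24 to -0.791). Without chromosomes 1, 5, 6, 8 and 9 the shares were 71.3% for members and 68.0% beyond 100 kb, a difference of 3.32 points (1.59 to 5.05). The share was higher in members than beyond 100 kb on 17 of 22 autosomes.

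Members lay closer to a neighbour than the far intergenic peaks, farther from one than upstream and promoter peaks, and about as far as intron peaks. The median gap to the next peak of any class was 16.3 kb for members, 26.1 kb beyond 100 kb, 11.5 kb for upstream, 11.1 kb for promoter and 16.5 kb for intron peaks. A neighbour within 10 kb was found for 3738 members, 35.4%, beside 37.2% of all peaks. The share was 26.0% beyond 100 kb, a difference of 9.46 points (8.08 to 10.8), 45.5% in upstream peaks, a difference of -10.1 points (-11.5 to -8.65), and 36.8% in intron peaks, a difference of -1.43 points (-2.61 to -0.249). Within 1 kb it was 586 members, 5.55%. No neighbour within 50 kb was found for 1837 members, 17.4%, the ABCA1 peak among them, beside 17.3% of all peaks. The summit lay in the middle 20% of the peak in 37.0% of members and 37.4% of far intergenic peaks, and the difference of -0.457 points (-1.92 to 1.00) was not detectable at this number of peaks.

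Upstream and downstream members were nearly balanced, with 5480 upstream, 51.9% (51.0 to 52.9), and 5076 downstream. All 1300 members under 20 kb were downstream of the TSS, since the authors' upstream class takes up the first 20 kb on the other side. Beyond 20 kb there were 5480 upstream and 3776 downstream members, 59.2% upstream. This share fell to 55.8% beyond 50 kb and to 52.4% (48.3 to 56.4) beyond 90 kb. It was 51.4% among intergenic peaks 100 to 200 kb away. A downstream peak is intergenic only past the end of its gene, and the part of gene length in this balance was not tested. Downstream members lay a median of 20.7 kb past the gene end (7.94 to 42.2), and 876 of them, 17.3%, were within 5 kb of it.

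The distances, on which the members were chosen, are given as a description. Upstream members went from 1433 at 20 to 30 kb to 306 at 90 to 100 kb, and downstream members numbered 534 under 10 kb, 766 at 10 to 20 kb and 278 at 90 to 100 kb. The median distance was 40.8 kb (quartiles 25.7 and 63.3). The median fold enrichment was 7.35 in every step of 10 kb, and the share at 10 or more moved between 3.66% and 5.18%. It was 4.60% upstream and 4.43% downstream, a difference of 0.166 points (-0.631 to 0.959). The 3 members just inside the limit were LINC01082 at -99989 bp with 17 tags and a fold enrichment of 11.44, ZNF267 at 99991 bp with 11 tags and 6.54, and NTRK2 at -99993 bp with 19 tags and 10.65. The 3 peaks just outside were LINC02173 at 100003 bp with 16 tags and 10.62, EPHA7 at -100039 bp with 17 tags and 9.14, and LOC101927915 at -100092 bp with 14 tags and 6.78.

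**Figure D4:**
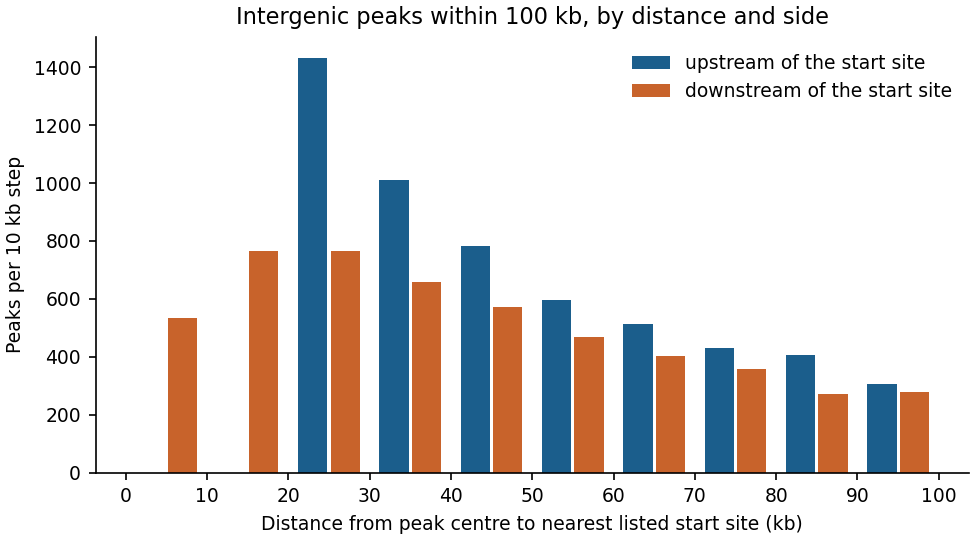
Number of members per 10 kb of distance to the TSS (horizontal axis, kb), upstream in blue and downstream in orange. Upstream counts start at 20 kb with 1433 and fall to 306, and downstream counts lie at 766 or fewer throughout and fall to 278.

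The members were assigned to 6151 gene symbols, 39.1% of the symbols in the list. Of these, 3639 symbols, 59.2%, had 1 member and 209 had at least 5. For 1319 symbols the only listed peak was a member, ABCA1 among them, and 784 of these were protein-coding. Protein-coding genes took 57.6% of members, long non-coding RNAs 29.5% and microRNAs 7.32%. Protein-coding genes took 71.7% of all peaks, 71.7% of upstream, 76.6% of promoter and 88.5% of intron peaks, so members were assigned to them less often than peaks of these classes, with a difference of -14.1 points (-15.5 to -12.7) to the upstream class. Beyond 100 kb their share was 49.7%, a difference of 7.87 points (6.37 to 9.37), and long non-coding RNAs took 38.2%. A promoter peak was also listed for 534 of the 3720 protein-coding genes with a member, 14.4%, and for 12.8% of those without a member, a difference of 1.53 points (0.322 to 2.80). Genes were matched by current symbol, which held for 3720 of the 3774 protein-coding symbols with a member. A gene listed under an older name counts as having no member and no promoter peak. This can lower the 12.8%, and its part in the difference was not tested. No member had a nearer listed TSS than the one assigned. Only transcripts assigned to some peak are in the list, so other annotated start sites were not checked.

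Some genes collected many members. MIR4539, a microRNA, had 21, of which 20 lay on chromosome 8 and 1 on chromosome 14, and RefSeq places this gene on chromosome 14. MIR4454, with 9, had members on 4 chromosomes and is on chromosome 4 in RefSeq. In all, 13 symbols had members on more than 1 chromosome, so their counts are not those of 1 locus. LOC102724511 had 13 members. C16orf82, LOC390705 and MROH5 had 12 each, and LOC390705 stood out by a median background of 1.91 times the genome-wide one and by up to 149 tags. ZNF469, a zinc finger gene linked to corneal thickness, had 11, all upstream on chromosome 16 between positions 88352305 and 88388011, a span of 35.7 kb. Of these 11 members, 9 were at the genome-wide background, and their fold enrichment was 5.90 to 10.6. ARC, an immediate early gene of neurons, had 9 on chromosome 8, all downstream, and ELK2AP had 9 with a fold enrichment of up to 13.7. C9orf62 and LOC105375075 also had 9. Of the members of MROH5, ARC, C9orf62 and LOC105375075, on chromosomes 6, 8 and 9, 0 were at the genome-wide background, and of those of LOC102724511 on chromosome 6, 2 of 13 were.

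Among genes of cholesterol efflux and the LXR pathway, 7 of 27 had a member, 25.9% (13.2 to 44.7), against 18.5% of all protein-coding genes. Their 14 peaks had a fold enrichment of 5.13 to 13.6, and 10 of the 14 were at a background over 1.2 times the genome-wide one, beside 26.0% of all members. Most of these 10 were at RXRA on chromosome 9 and LPL on chromosome 8. On these chromosomes 46.1% and 1.47% of members were at the genome-wide background. The part of locus and chromosome was not tested. RXRA, the partner receptor of LXR, had 6 members, all downstream at 34.9 to 86.1 kb. The strongest of them, at 75.8 kb, had 27 tags and an enrichment of 13.60, and the others were at 5.53 to 7.35. LPL, the lipase that releases fatty acids from lipoproteins, had 3 upstream members, with 22 tags and 10.91 at 57.7 kb, 20 tags and 9.22 at 48.3 kb, and 24 tags and 8.78 at 23.8 kb. SCARB1, a high-density lipoprotein receptor, had 13 tags and 7.35 at 91.6 kb downstream, and ABCA1 came after it with 6.54.

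In the list for cholesterol synthesis and uptake, 7 of 26 genes had a member, 26.9% (13.7 to 46.1). INSIG1, which holds back sterol synthesis by retaining SREBP in the endoplasmic reticulum, had 6 of its 8 peaks among the members, 4 of them upstream. The strongest lay at chr7:155067999-155068569, 21.2 kb upstream, with 19 tags and 11.44. IDI1 and CYP51A1, enzymes of cholesterol synthesis, both had 8.17, with 14 and 16 tags.

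Among foam cell and scavenger receptor genes, 7 of 23 had a member, 30.4% (15.6 to 50.9). LGALS3, or galectin-3, had 15 tags and 10.62 at 29.8 kb upstream, and PLIN2, which coats lipid droplets, had 18 tags and 8.85 at 39.6 kb upstream. CD36, a receptor for ox-LDL, had its only peak 77.7 kb downstream with 12 tags and 7.35. MARCO, a scavenger receptor of macrophages, had 12 tags and 7.35 at 37.0 kb upstream. These values lay within the range of members at large.

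Of 25 genes of myeloid identity, 10 had a member, 40% (23.4 to 59.3), beside 18.5% of all protein-coding genes. Their 24 peaks had a fold enrichment of 4.85 to 11.8. MAF, a macrophage transcription factor, had 4 downstream members, the strongest with 19 tags and 11.81 at 77.9 kb. IRF8, which directs the monocyte lineage, had 18 tags and 9.80 at 45.0 kb upstream. KLF4, another monocyte factor, had 3 upstream members, the strongest with 14 tags and 9.80 at 21.4 kb. RUNX1, a factor of blood cell formation, had 13 tags and 9.14 at 67.2 kb upstream. Of 21 genes of inflammation, 5 had a member, 23.8% (10.6 to 45.1). SOD2, the mitochondrial superoxide dismutase, had 5 members with up to 8.61, NFKB2, an NF-κB subunit, had 17 tags and 7.35, NLRP3, the inflammasome sensor, had up to 6.83, and IL10, an anti-inflammatory cytokine, had 34 tags and 6.32.

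Known PAX8 targets of thyroid and kidney had a member in 8 of 23 genes, 34.8% (18.8 to 55.1), beside 18.5% of all protein-coding genes. A background over 1.2 times the genome-wide one was found in 0 of their 16 peaks, beside 26.0% of all members. Of these 16 peaks, 5 were at GATA3. All but the WNT4 peak lay on chromosomes 10, 11, 15, 16 and 19, where 58.6% to 76.7% of members were at the genome-wide background. Among the silent genes described next it was 2 of 14 peaks, at TNNT2 and ACTA1 on chromosome 1, where 24.4% of members were at that background. The part of chromosome and locus in this contrast was not tested. SLC5A5, the sodium iodide symporter of the thyroid, had 15 tags and 8.99 at 29.5 kb downstream. PAX2, a paired-box factor of the kidney, had 12 tags and 8.99 at 61.3 kb and 17 tags and 8.17 at 24.6 kb, both upstream. SALL1, a kidney developmental factor, had up to 8.85, and HHEX, a homeobox factor of thyroid and liver, had up to 8.17.

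The lists meant as a contrast gave shares of the same order. Highly transcribed housekeeping genes had a member in 5 of 25, 20% (8.86 to 39.1), with YWHAZ at 10.86, FTH1, the ferritin heavy chain, at 9.80, and PPIA at 8.99. Genes silent in macrophages had a member in 8 of 25, 32% (17.2 to 51.6), with FSHB, the pituitary hormone subunit, at 8.99, and the neuronal factors NEUROD1 and NEUROG2 and the lens gene CRYAA at 8.17. In all, 57 of the 195 listed genes had a member. The shares of all 8 lists, the contrast lists included, were above the 18.5% of all protein-coding genes. Only for myeloid identity and known PAX8 targets did the whole interval lie above 18.5%. The intervals of the 8 lists overlap each other widely. Lists were not tested against random genes, and the length of the DNA around each gene, which sets how many peaks can fall there, was not taken into account.

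**Figure D5:**
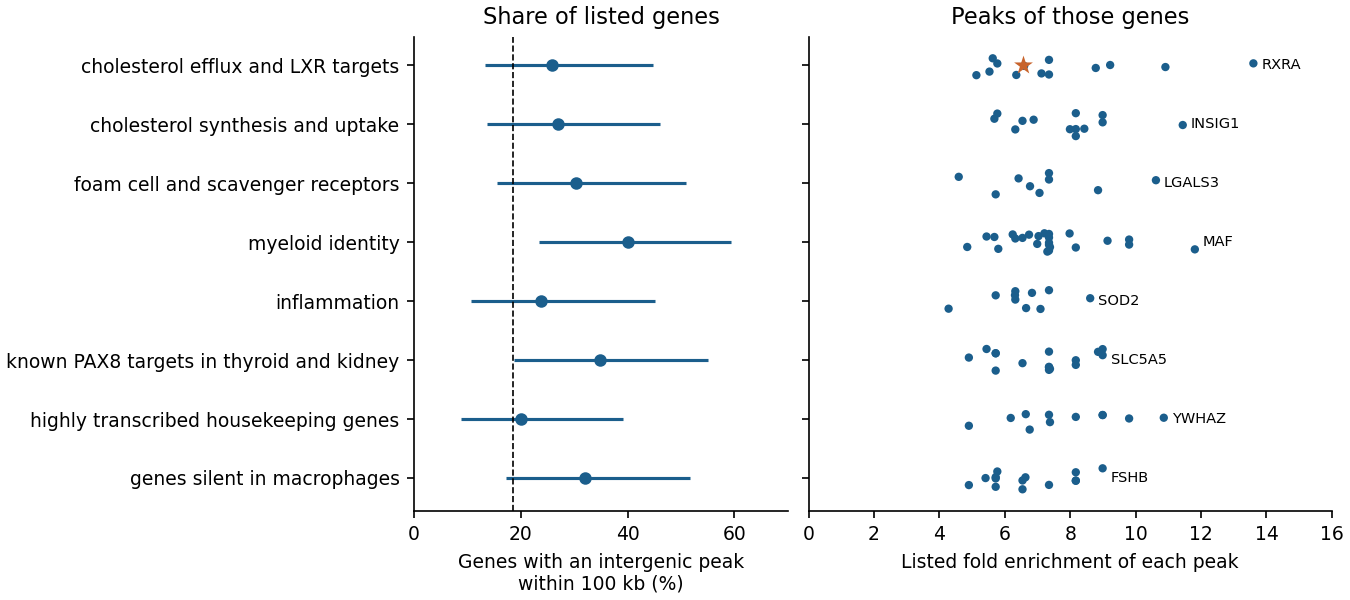
Left, share of the genes of each of the 8 lists (rows) with a member in percent, with Wilson 95% intervals and a dashed line at the 18.5% of all protein-coding genes. Right, listed fold enrichment of each member peak of those genes, 1 point for each peak and the ABCA1 peak as an orange star at 6.54, where points of all lists lie between 4.28 and 13.6, and the silent genes span 4.90 to 8.99.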

How the data were processed

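The data were 1 peak list from 1 PAX-8 ChIP and 1 Input library of foam cells given C18-3OH, and no reads were processed. The deposited list holds, per the authors, a count of tags, a fold enrichment as a ratio, a p-value score and the FDR in percent for each peak. FastQC and the build hg19 are named in the submitters' processing notes. The aligner and the peak caller were not given in the sources used here.

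Repeated lines of a peak were counted once (103443 lines, 45360 peaks). The background was solved as the Poisson mean under which a count above the listed tags has the listed p-value, with base 10. This form was read from the list and is not stated by the authors. Gene names and types came from RefSeq GRCh38.p14, without coordinates, and 7 of 6151 symbols did not match. Peak sequences were not read, because no hg19 genome was used here.

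Members and gene lists were chosen with earlier results of these data known. Genes named were ABCA1, the 10 members highest in fold enrichment and in score, the 10 genes with most members and their ties, up to 4 genes per list, the 10 upstream members nearest to ABCA1 in distance, and 3 on each side of the limit. Some items that this rule names are left out. Intervals are Wilson, Newcombe and exact Poisson at 95%. The solving step was tested on data simulated with the same Poisson form, so the form itself was not checked. Calculations ran in Python 3.11.15 with scipy 1.17.1, pandas 2.3.3 and numpy 2.4.6, and figures in matplotlib 3.10.9. Alternatives were other limits on fold enrichment and distance, other tolerances, merged peaks, and leaving out chromosomes 6 and 8.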

Additional observations from a re-analysis of the deposited data

How the results depend on the processing

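Of 82 alternative values, 60 stayed within counting error, or within 1.5 times for a count, and 22 moved further. The 60 are not separate checks. Taking the class from any line of a peak, or the distance from its first line, left 10556 members and the same values. An FDR of at most 1% kept 10537 members, and leaving out peaks of 100 or more tags kept 10511. With a fold enrichment of at least 10, 477 members at 470 genes were left, with 6 list genes, 63.9% at the genome-wide background, a neighbour within 10 kb for 2.73% and, by construction, 100% at 10 or more. With a limit of at least 5, 56.2% were at the background, 33.9% had a neighbour within 10 kb and ABCA1 stood at percentile 28.3. The share past the limit itself was 35.1% at 8 and 0.786% at 12. Without chromosomes 6 and 8, 62.3% were at the background, 34.2% had a neighbour and ABCA1 stood at percentile 29.6. Within 50 kb there were 6521 members, 49.5% upstream and 36.5% with a neighbour, and within 200 kb 53.8% were at the background and 34.0% had a neighbour. Tolerances of 2% and 5% put 55.8% and 57.9% at the background, and merging peaks left 33.5% with a neighbour. The fewer peaks follow from each limit, and other causes were not tested. The ABCA1 peak is not in the sets at a fold enrichment of 10 or within 50 kb, so it has no place there. Alternatives that need hg19 sequence were not run. No paired analysis was possible because 1 library of each kind was at hand. Tags of 11 to 20 give wide Poisson intervals, so the order of most members is not resolved, and the depth of either library is unknown.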
